A study of Mus musculus with 6 samples.

Results

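The genes of cholesterol and fatty acid synthesis were examined in RNA-seq libraries of mouse brain at postnatal day 15. A list of 31 genes was taken by gene symbol from a table of 54532 gene identifiers: 19 enzymes of cholesterol synthesis, 5 regulators of the SREBP pathway and 7 enzymes of fatty acid synthesis. All 31 genes were in the table, and 30 of them passed a filter on low values (a mean of at least 0.5 FPKM over the libraries). FPKM is the number of sequenced fragments of a gene scaled by the length of its exons and by the depth of the library, so that levels can be set side by side between genes. The study compared 3 Angptl2+/+ with 3 Angptl2-/- libraries, each labelled as total cell types of the brain. Angptl2 encodes a secreted angiopoietin-like protein. The Angptl2-/- mice lack exon 2 of Angptl2 in the whole body, from a floxed allele that was deleted in the male germ line with a Stra8-driven Cre. The labels give no other agent or allele, and neither they nor the study's methods say how the brain was dissected or which sex the mice were. The labels number 3 libraries per genotype and do not say that each is a separate mouse, so p-values measure the spread between these libraries, which may be in part technical.

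As background, the brain makes nearly all of its own cholesterol, because lipoproteins do not cross the blood-brain barrier in useful amounts. Demand is highest while oligodendrocytes wrap axons in myelin, a membrane rich in cholesterol and long-chain fatty acids. Cholesterol is built from acetyl-CoA through mevalonate, isoprenoid diphosphates, squalene and lanosterol. Fatty acids are built from cytosolic acetyl-CoA through malonyl-CoA to palmitate, which is then elongated and desaturated. Both pathways are driven by SREBP transcription factors, which are held in the endoplasmic reticulum by SCAP and INSIG proteins when sterols are plentiful.

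The promoters of 4 genes are shown as examples of genes whose levels did not overlap between genotypes, 2 in each direction: Hmgcs1 and Nsdhl had higher levels in each Angptl2-/- library than in any Angptl2+/+ library, and Mvk and Srebf1 had lower ones. Promoter windows from RefSeq (GRCm38.p6), from 250 bases before to 50 after each annotated start, matched 26 of the 31 genes. Each sequence below ends 1 base before an annotated start and is written 5′ to 3′ on the strand of its gene, and stretches that overlap an annotated exon were left out. Capitals mark the CCAAT box (CCAAT, or ATTGG on the other strand), where the factor NF-Y binds, and, in Hmgcs1, a match to TCACNCCAC, the core of the sterol regulatory element to which SREBPs bind. For Srebf1, which has 3 annotated starts, the window that holds both a CCAAT box and a GC box is shown.
Hmgcs1, chr13:119690101-119690350, plus strand: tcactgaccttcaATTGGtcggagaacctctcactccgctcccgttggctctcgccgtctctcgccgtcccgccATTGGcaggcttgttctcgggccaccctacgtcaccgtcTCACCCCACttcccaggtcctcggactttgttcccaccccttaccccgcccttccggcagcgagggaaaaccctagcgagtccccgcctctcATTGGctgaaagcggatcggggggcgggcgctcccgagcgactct
Nsdhl, chrX:72918412-72918520, plus strand: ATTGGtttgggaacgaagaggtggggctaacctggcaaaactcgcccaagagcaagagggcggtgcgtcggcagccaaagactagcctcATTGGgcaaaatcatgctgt
Mvk, chr5:114444061-114444268, plus strand: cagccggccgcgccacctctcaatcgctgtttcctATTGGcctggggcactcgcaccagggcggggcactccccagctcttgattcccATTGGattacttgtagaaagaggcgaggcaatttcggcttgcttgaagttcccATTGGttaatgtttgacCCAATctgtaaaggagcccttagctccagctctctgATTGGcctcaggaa
Srebf1, chr11:60210472-60210721, minus strand: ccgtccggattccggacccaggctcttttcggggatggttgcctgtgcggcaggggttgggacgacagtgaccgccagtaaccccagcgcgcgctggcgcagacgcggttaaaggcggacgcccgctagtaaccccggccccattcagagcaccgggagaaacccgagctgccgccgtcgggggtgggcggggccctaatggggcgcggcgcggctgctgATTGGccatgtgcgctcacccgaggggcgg
Of the 26 genes with a window, 22 held ATTGG on either strand (84.6%), against 41.1% of 27025 genes in the RefSeq table, which counts genes of every kind. The GC box GGGCGG, a binding site of Sp1, was in 21 of 26 (80.8%, against 38.2%). The E-box CACGTG was in 6 of 26 (23.1%, against 8.09%). The sterol element core TCACNCCAC was matched in 1 of 26 genes, in Hmgcs1, at position −137 from its start (3.85%, against 1.44%). The Mvk stretch above holds 5 CCAAT boxes, Hmgcs1 holds 3, Nsdhl holds 2 and the Srebf1 window holds 1. Genes with CCAAT boxes were found among those with higher and those with lower levels in Angptl2-/- brain. These matches describe the letters of the windows only.

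No gene of the 14862 tested, and none of the 30 tested here, passed an adjusted p of 0.05 in limma (background 0% of all genes), or with voom on recovered fragments. The smallest adjusted p over all genes was 0.273, and Srebf1 shared it. At a nominal p below 0.05, that is before this adjustment, 4 of the 30 genes were higher in Angptl2-/- libraries (13.3% of them, where 7.09% of all genes tested were) and 3 were lower (10% of them, where 9.12% were). The 4 higher genes were Hmgcs1, Sqle, Msmo1 and Nsdhl, which all encode enzymes of the pre- and post-squalene steps, and the 3 lower ones were Mvk, Tm7sf2 and Srebf1. Tm7sf2 was at the edge of this threshold and was below it in only 1 of 21 alternative settings, so that 8 of these settings gave Mvk and Srebf1 alone as lower. Levels in the 3 Angptl2-/- libraries lay above all 3 Angptl2+/+ libraries for 4 genes (background 10.7% of all genes) and below them for 3 genes, Mvk, Srebf1 and Scap (background 11.8%). These shares lie close to those of all genes. With 3 libraries per genotype an exact permutation test of a single gene cannot give a p below 0.1, which all 7 genes without overlap reached.

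**Figure D1:**
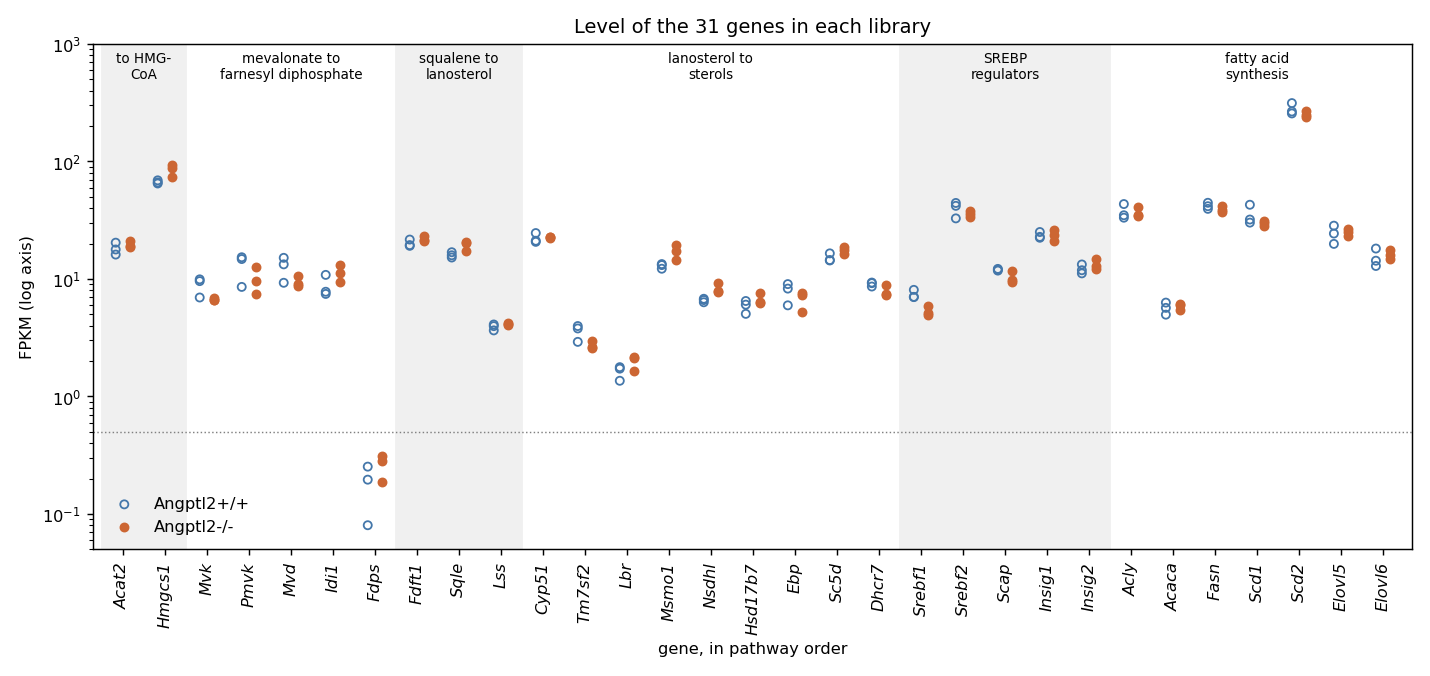
Level of each of the 31 genes in each library, in FPKM on a log axis, with genes in pathway order; open circles are the 3 Angptl2+/+ and filled circles the 3 Angptl2-/- libraries, and the dotted line marks the 0.5 FPKM filter on the mean. Scd2 and Hmgcs1 are the most abundant genes, Fdps lies below the filter, and the genotypes differ by little compared with the range between genes.

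Levels spanned more than 3 orders of magnitude between genes. By mean FPKM over the 6 libraries Scd2 ranked first with 265 FPKM, followed by Hmgcs1 with 75.7, Fasn with 40.5, Srebf2 with 37.6 and Acly with 37.0. Lss (4.02 FPKM), Tm7sf2 (3.14) and Lbr (1.80) were the least abundant of the tested enzymes. Fasn, Srebf2 and Acly were within one another's spread between libraries in Angptl2+/+ brain (41.9 ± 2.5, 39.7 ± 6.10 and 37.2 ± 5.47 FPKM, mean ± SD, n = 3). Summed over the 19 cholesterol enzymes, with the untested Fdps, the level was 264, 258 and 237 FPKM in the Angptl2+/+ libraries and 263, 282 and 291 FPKM in the Angptl2-/- libraries. The groups overlapped in this sum, and Hmgcs1 was its largest single part. The median log2 fold change of the 18 tested enzymes was 0.12, with 12 positive and 6 negative values, beside a median of −0.00 over all genes tested. For the 7 fatty acid enzymes the median was −0.01 (3 positive, 4 negative), and for the 5 SREBP regulators it was −0.15 (2 positive, 3 negative).

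The first step condenses acetyl-CoA to HMG-CoA. Acat2, the cytosolic acetoacetyl-CoA thiolase, ranged from 16.1 to 20.4 FPKM in Angptl2+/+ and from 18.7 to 21.02 FPKM in Angptl2-/- brain (log2 fold change 0.11, SE 0.12). Hmgcs1 (ENSMUSG00000093930, chr13:119690379-119708260, plus strand), the cytosolic HMG-CoA synthase that commits acetyl-CoA to this route, measured 66.4, 69.1 and 65.0 FPKM in Angptl2+/+ libraries and 73.2, 87.9 and 92.7 FPKM in Angptl2-/- libraries. Every Angptl2-/- library exceeded every Angptl2+/+ library, with the smallest gap at replicate 1. The log2 fold change was 0.33 (SE 0.11, adjusted p = 0.277). Acat2 shares 45.9% of its 50-base words with other genes, mostly Acat3 (0.269 to 0.780 FPKM), and 13.2% with Tcp1. Tcp1 was at 25.4 to 26.9 FPKM in Angptl2+/+ and 30.7 to 34.5 FPKM in Angptl2-/- libraries. Part of the reads of Acat2 may thus have matched these genes as well, which was not tested. Hmgcs1 shares 13.6%, with the antisense gene Gm48342 (0.217 FPKM or lower), and the sources used here do not say whether the reads keep their strand.

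The next enzymes carry mevalonate to farnesyl diphosphate, and their values pointed the other way with 1 exception. Mvk (ENSMUSG00000041939, chr5:114444269-114460591, plus strand), mevalonate kinase, measured 9.59, 9.93 and 6.96 FPKM in Angptl2+/+ and 6.88, 6.69 and 6.57 FPKM in Angptl2-/- libraries. The groups did not overlap, but Angptl2+/+ replicate 3 lay within 0.1 FPKM of the highest Angptl2-/- library. The log2 fold change was −0.37 (SE 0.15, adjusted p = 0.295). Pmvk, phosphomevalonate kinase and the most abundant gene of this step, measured 14.8, 15.3 and 8.56 FPKM in Angptl2+/+ and 12.5, 9.55 and 7.41 FPKM in Angptl2-/- libraries. Its groups overlapped widely, again because Angptl2+/+ replicate 3 was low (log2 fold change −0.37, SE 0.27). That library was the only Angptl2+/+ one with Y-linked markers, as described below. Mvd, the mevalonate diphosphate decarboxylase, ranged from 9.28 to 15.1 FPKM in Angptl2+/+ and from 8.70 to 10.7 FPKM in Angptl2-/- brain (−0.39, SE 0.19). Idi1, which isomerises isopentenyl diphosphate, was the exception, with 7.46 to 10.8 FPKM in Angptl2+/+ and 9.43 to 13.03 FPKM in Angptl2-/- brain (0.38, SE 0.18). It shares 30.5% of its 50-base words with other genes, mostly the processed pseudogene Gm13502 (0.741 to 1.56 FPKM).

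Fdps, farnesyl diphosphate synthase, was at 0.253, 0.0803 and 0.196 FPKM in Angptl2+/+ and 0.310, 0.282 and 0.189 FPKM in Angptl2-/- libraries. It fell below the filter and was not tested. This level stood far under that of the enzymes before and after it in the pathway. Fdps shares 11.7% of its 50-base words with other genes, 11.7% with Gm43738 and 3.24% with Gm3571. Gm3571, a processed pseudogene that shares 9.30% of its words with Fdps, was listed at 2.33 to 4.19 FPKM, higher than Fdps in every library. Gm43738, an overlapping gene that shares 13.2% of its words with Fdps, was listed at 0 in every library. Most words of Fdps are thus its own, and whether shared reads bear on its low level was not tested. How reads shared between these genes were assigned is not given in the sources used here, so the level of Fdps is uncertain.

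From farnesyl diphosphate to lanosterol all 3 genes had positive values. Fdft1, squalene synthase and the most abundant of them, measured 19.2, 19.4 and 21.7 FPKM in Angptl2+/+ and 20.97, 21.4 and 23.4 FPKM in Angptl2-/- libraries (log2 fold change 0.13, SE 0.10), with overlapping groups. Sqle (ENSMUSG00000022351, chr15:59315077-59331192, plus strand), squalene epoxidase, which performs the first oxygen-dependent step, measured 15.9, 16.9 and 15.2 FPKM in Angptl2+/+ and 17.5, 20.1 and 20.7 FPKM in Angptl2-/- libraries. Every Angptl2-/- library was higher (log2 fold change 0.27, SE 0.11, adjusted p = 0.288). Lss, lanosterol synthase, ranged from 3.65 to 4.10 FPKM in Angptl2+/+ and from 4.06 to 4.24 FPKM in Angptl2-/- brain (0.08, SE 0.11). Fdft1 shares 30.7% of its 50-base words with other genes, mostly Ctsb (70.6 to 94.5 FPKM), whose annotation overlaps it on chromosome 14.

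Of the 9 genes that convert lanosterol to later sterols, 6 had positive and 3 negative values. Cyp51, lanosterol 14-demethylase and the most abundant of them, measured 24.6, 21.2 and 20.7 FPKM in Angptl2+/+ and 22.3, 22.6 and 22.8 FPKM in Angptl2-/- libraries, with a log2 fold change of 0.03 (SE 0.10). Msmo1 (ENSMUSG00000031604, chr8:64718139-64733792, minus strand), a methylsterol monooxygenase that acts in the removal of the C-4 methyl groups, measured 13.4, 12.2 and 13.1 FPKM in Angptl2+/+ and 14.6, 17.4 and 19.3 FPKM in Angptl2-/- libraries. All 3 Angptl2-/- libraries were higher, and its log2 fold change of 0.39 (SE 0.13, adjusted p = 0.274) was the highest of the 30. Nsdhl (ENSMUSG00000031349, chrX:72918557-72958514, plus strand), the sterol dehydrogenase of the same demethylation complex, measured 6.62, 6.79 and 6.34 FPKM in Angptl2+/+ and 7.79, 9.22 and 7.85 FPKM in Angptl2-/- libraries. These groups did not overlap either (0.32, SE 0.11, adjusted p = 0.274). Hsd17b7, the ketosteroid reductase that completes the removal of these methyl groups, ranged from 5.05 to 6.50 FPKM in Angptl2+/+ and from 6.26 to 7.58 FPKM in Angptl2-/- brain (0.20, SE 0.14).

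The reduction of the C-14 double bond can be done by the product of Tm7sf2 or of Lbr, the lamin B receptor, and these genes differed in opposite directions. Tm7sf2 (ENSMUSG00000024799, chr19:6062821-6068373, minus strand) measured 3.98, 3.79 and 2.92 FPKM in Angptl2+/+ and 2.66, 2.56 and 2.96 FPKM in Angptl2-/- libraries, with a single overlapping pair (log2 fold change −0.36, SE 0.16, adjusted p = 0.308). Lbr measured from 1.36 to 1.78 FPKM in Angptl2+/+ and from 1.64 to 2.17 FPKM in Angptl2-/- brain (0.27, SE 0.19). Their ratio within each library, Tm7sf2 over Lbr, was 2.24, 2.20 and 2.14 in Angptl2+/+ and 1.26, 1.56 and 1.37 in Angptl2-/- libraries. The ratio was tight in Angptl2+/+ brain (2.19 ± 0.05, SD, n = 3) and lower in every Angptl2-/- library (1.39 ± 0.15, n = 3, exact permutation p = 0.1, the smallest 3 against 3 libraries allow). Tm7sf2 has 51.0% GC and Lbr 44.2%, and after each library was corrected for GC content their log2 fold changes were −0.30 and 0.11. This pair was picked for its shared reaction among 7 ratios computed. The ratios of Srebf2 to Srebf1 and of Hmgcs1 to Mvk also reached an exact permutation p of 0.1, and the others did not. Hmgcs1 over Mvk was 7.74 ± 1.39 in Angptl2+/+ and 12.6 ± 1.80 in Angptl2-/- libraries (SD, n = 3 each). No adjustment over the ratios was made, and none of them could pass a threshold of 0.05 at this number of libraries.

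In the last steps Ebp, the sterol isomerase, ranged from 5.97 to 9.05 FPKM in Angptl2+/+ and from 5.23 to 7.57 FPKM in Angptl2-/- brain (log2 fold change −0.21, SE 0.20). Sc5d, lathosterol oxidase, ranged from 14.4 to 16.5 FPKM and from 16.3 to 18.6 FPKM (0.21, SE 0.11). Dhcr7, which reduces 7-dehydrocholesterol to cholesterol, ranged from 8.63 to 9.32 FPKM and from 7.28 to 8.97 FPKM (−0.20, SE 0.12). None of these genes was without overlap between the genotypes.

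**Figure D2:**
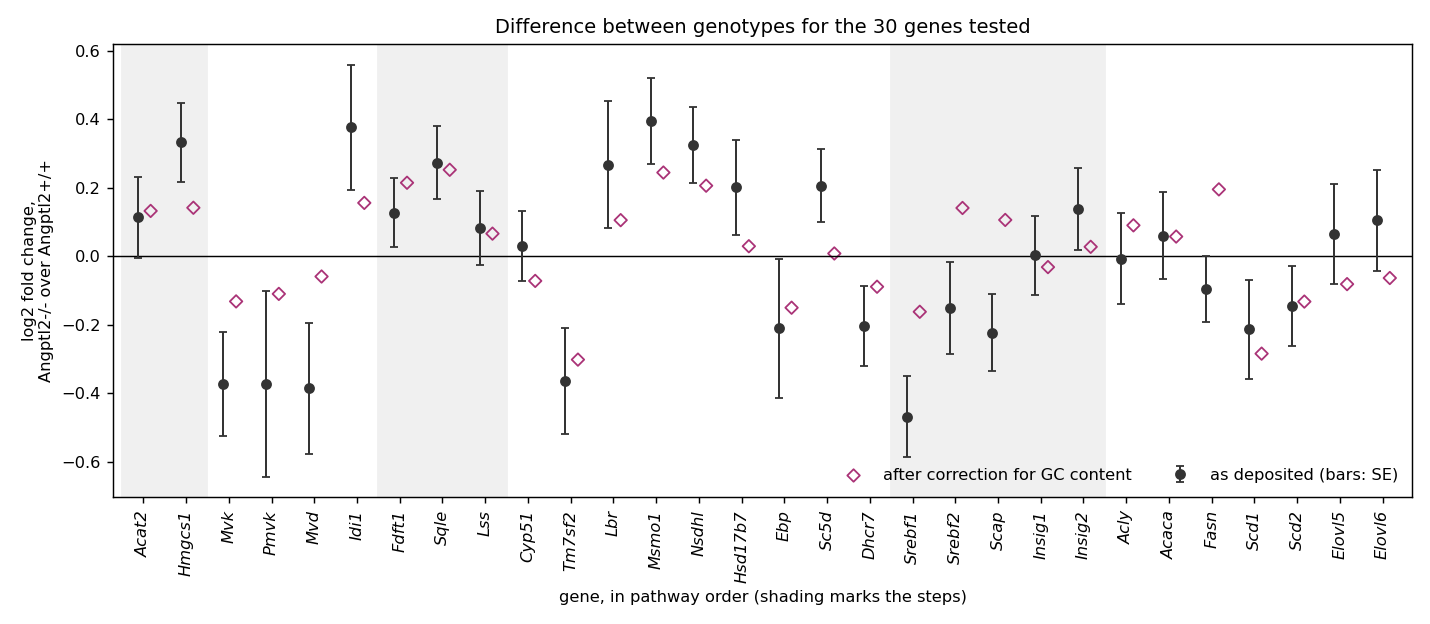
Log2 fold change (Angptl2-/- over Angptl2+/+, log2 of FPKM plus 0.1) of the 30 tested genes in pathway order; filled circles with SE bars are the values as deposited, and open diamonds are the values after each library was corrected for GC content. The step from mevalonate, the steps after lanosterol, the regulators and the fatty acid enzymes each hold values of both signs, Msmo1 is highest with 0.39 and Srebf1 lowest with −0.47, and most values move toward 0 after the correction.

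Among the regulators, Srebf1 had the lowest log2 fold change of all 30 genes. Srebf1 (ENSMUSG00000020538, chr11:60199089-60222581, minus strand) encodes SREBP-1, which acts chiefly on fatty acid synthesis genes, and measured 7.01, 8.08 and 7.05 FPKM in Angptl2+/+ and 5.84, 4.97 and 5.11 FPKM in Angptl2-/- libraries. Every Angptl2-/- library was lower (log2 fold change −0.47, SE 0.12, adjusted p = 0.273). Srebf2 encodes SREBP-2, which acts chiefly on cholesterol synthesis genes, and was more abundant, with 32.8, 44.4 and 41.9 FPKM in Angptl2+/+ and 37.7, 35.4 and 33.4 FPKM in Angptl2-/- libraries. Its groups overlapped (−0.15, SE 0.13). The ratio of Srebf2 to Srebf1 was 5.37 ± 0.65 in Angptl2+/+ and 6.70 ± 0.37 in Angptl2-/- libraries (SD, n = 3 each, exact permutation p = 0.1). Scap (ENSMUSG00000032485, chr9:110333288-110384950, plus strand), the escort protein that carries SREBPs to the Golgi, measured 11.8, 12.02 and 12.2 FPKM in Angptl2+/+ and 11.6, 9.78 and 9.50 FPKM in Angptl2-/- libraries. The groups did not overlap, although replicate 1 of both genotypes almost met, and the test did not pass (−0.22, SE 0.11, adjusted p = 0.359).

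The INSIG proteins retain SCAP in the endoplasmic reticulum, and Insig1 is itself an SREBP target. Insig1 measured 25.1, 22.4 and 22.8 FPKM in Angptl2+/+ and 23.5, 20.9 and 26.3 FPKM in Angptl2-/- libraries (log2 fold change 0.00, SE 0.12). Insig2 measured 13.3, 11.2 and 11.9 FPKM in Angptl2+/+ and 12.3, 12.9 and 14.8 FPKM in Angptl2-/- libraries (0.14, SE 0.12). Both genes overlapped between the genotypes.

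None of the 7 fatty acid enzymes reached a nominal p of 0.05 (background 16.2% of all genes) or was without overlap (background 10.7% above and 11.8% below). Acly, which makes cytosolic acetyl-CoA from citrate, ranged from 33.2 to 43.4 FPKM in Angptl2+/+ and from 34.6 to 40.6 FPKM in Angptl2-/- brain (log2 fold change −0.01, SE 0.13). Acaca, the acetyl-CoA carboxylase of the committed step, ranged from 4.97 to 6.30 FPKM and from 5.44 to 6.18 FPKM (0.06, SE 0.13). Fasn, fatty acid synthase, ranged from 39.5 to 44.5 FPKM and from 37.5 to 41.4 FPKM (−0.10, SE 0.10). Acaca shares 52.6% of its 50-base words with other genes, and the processed pseudogene Gm5182, which shares 82.3% of its words with Acaca, was listed at 2.30 to 3.00 FPKM.

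Scd2, the main stearoyl-CoA desaturase of the brain, measured 314, 266 and 256 FPKM in Angptl2+/+ and 269, 247 and 238 FPKM in Angptl2-/- libraries (log2 fold change −0.15, SE 0.12). Scd1, its neighbour on chromosome 19, ranged from 30.2 to 42.8 FPKM in Angptl2+/+ and from 28.5 to 30.9 FPKM in Angptl2-/- brain (−0.21, SE 0.14, and −0.060 without Angptl2+/+ replicate 3). Scd2 exceeded Scd1 by 8.20 ± 1.98 times in Angptl2+/+ and 8.43 ± 0.49 times in Angptl2-/- libraries (SD, n = 3 each, exact permutation p = 0.9). The elongases Elovl5, which acts on polyunsaturated fatty acids, and Elovl6, which extends palmitate, had log2 fold changes of 0.07 (SE 0.15) and 0.11 (SE 0.15). Elovl5 ranged from 19.9 to 28.4 FPKM and from 23.3 to 26.8 FPKM, and Elovl6 from 12.9 to 18.2 FPKM and from 14.9 to 17.6 FPKM, in Angptl2+/+ and Angptl2-/- brain.

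The direction of these genes followed the GC content of their longest transcript, which ranges from 41.9% in Idi1 to 59.1% in Scap. Over the 30 genes the log2 fold change and the GC content had a Pearson r of −0.81 and a Spearman rho of −0.81, against −0.48 and −0.62 over the 14845 tested genes with a GC value. These are correlations across genes of the same 6 libraries, and genes are not independent replicates. All 9 genes with 42 to 46% GC had positive values (median 0.21, where the 2644 genes of that range had a median of 0.17). All 4 genes with 54 to 58% GC had negative values (median −0.26, against −0.21 for 2573 genes), as did all 3 genes above 58% (median −0.39, against −0.36 for 1520 genes). The mevalonate step, with a median GC content of 56.6%, held 3 negative values and 1 positive, and the steps after lanosterol, with a median of 45.8%, held 6 positive and 3 negative.

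**Figure D3:**
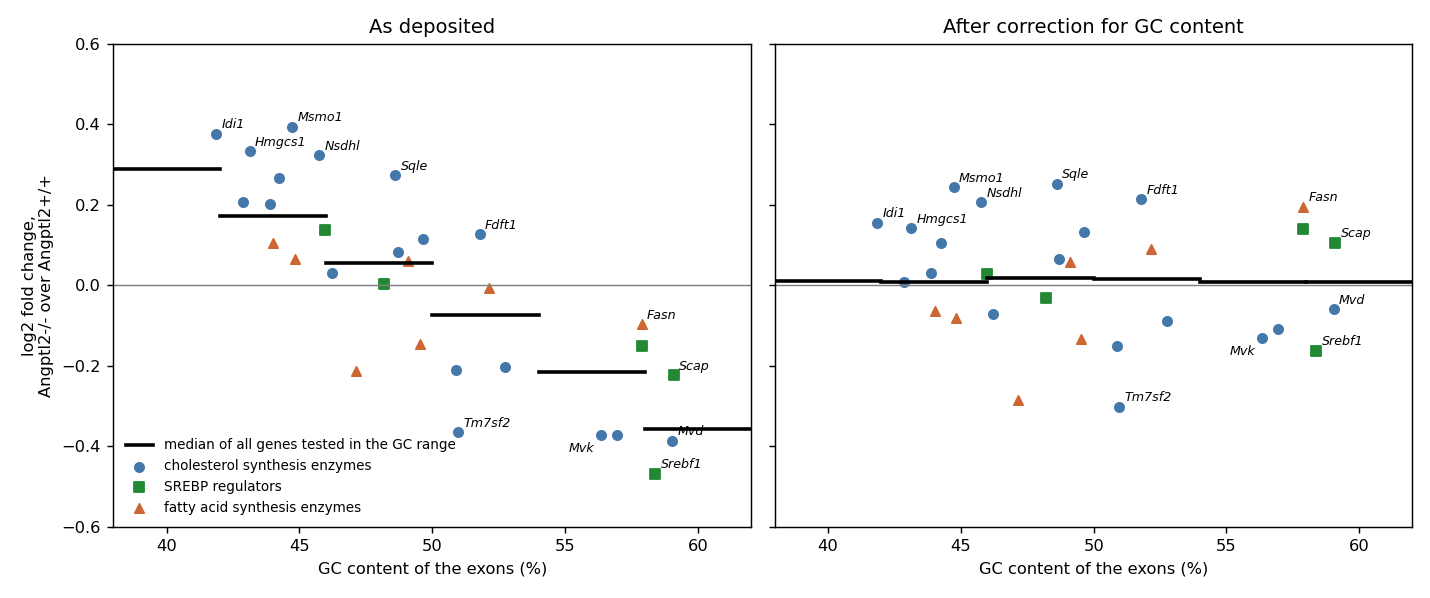
Log2 fold change (Angptl2-/- over Angptl2+/+) against GC content in percent, as deposited (left) and after correction (right). The GC content is that of the longest transcript of each gene, although the axis names the exons. Points are the 30 tested genes by pathway, and black bars are medians of all tested genes in each GC range. The points fall along the bars on the left (Pearson r −0.81) and show little slope on the right (r −0.16).

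The relation to GC content differed between libraries of 1 genotype. The level of the 30 genes relative to the mean of all 6 libraries correlated with GC content with a Pearson r of 0.31, 0.86 and 0.26 in the Angptl2+/+ libraries and of 0.01, −0.70 and −0.78 in the Angptl2-/- libraries. Over all tested genes these values were 0.22, 0.42 and 0.08, and 0.02, −0.30 and −0.44. Angptl2+/+ replicate 2 and Angptl2-/- replicates 2 and 3 thus stood farthest apart, while over all tested genes Angptl2+/+ replicate 3 and Angptl2-/- replicate 1 were nearest to 0. Whether this trend arose in the brain or in library preparation was not tested.

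After each library was corrected for GC content by a loess curve, 2 of the 30 genes were higher at a nominal p below 0.05 (background 3.41% of all genes) and 0 were lower (background 3.47%). These were Sqle (log2 fold change 0.25) and Msmo1 (0.24). Nsdhl fell to 0.21 and Hmgcs1 to 0.14, both no longer below that p, and Fdft1 had 0.21. Mvk moved to −0.13, Mvd to −0.06, Pmvk to −0.11 and Srebf1 to −0.16. Tm7sf2 had −0.30 and Scd1 −0.28, both short of that p. Scap, Srebf2 and Fasn had 0.11, 0.14 and 0.20, the opposite sign of their values as deposited. The median of the 18 cholesterol enzymes was 0.05 after the correction, beside 0.01 over all genes, and no gene of the 14862 passed an adjusted p of 0.05 (background 0%).

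Nsdhl and Ebp lie on the X chromosome, and the libraries differed in sex markers. Xist was at 27.4, 27.9 and 42.2 FPKM in Angptl2+/+ replicates 1 and 2 and Angptl2-/- replicate 2, and at 0.0697 FPKM or lower in the others, which carried Y-linked Kdm5d at 1.37 to 1.77 FPKM. With sex as a covariate Nsdhl had a log2 fold change of 0.38 and Ebp of −0.07. Within the libraries with Xist the difference of Nsdhl was 0.45 (2 Angptl2+/+ against 1 Angptl2-/-). Within those with Kdm5d it was 0.30 (1 against 2). For Mvk, Pmvk, Mvd and Tm7sf2 the differences within the libraries with Xist were −0.54, −0.65, −0.65 and −0.58. Within those with Kdm5d they were −0.05, 0.17, 0.05 and −0.06, so the lower values of these genes came mainly from libraries with Xist. Srebf1 had −0.59 and −0.36, and Idi1 had 0.30 and 0.56. Each of these differences rests on 1 library of 1 genotype. With sex as a covariate Hmgcs1, Sqle, Msmo1 and Nsdhl were higher at a nominal p below 0.05 (background 4.12% of all genes). Srebf1 was lower (background 6.34%).

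Genes around the 2 pathways were taken from lists, and none passed the adjusted p. Sterol transport, esterification and export had 13 negative and 3 positive values among 16 tested genes (median −0.22, beside −0.00 over all genes). After GC correction the median of this list was −0.096, beside 0.01 over all genes. At a nominal p below 0.05, before that correction, 3 of its genes were lower and 1 higher (background 9.12% and 7.09% of all genes). Nr1h2, the liver X receptor beta that senses oxysterols, measured 11.6, 10.4 and 11.4 FPKM in Angptl2+/+ and 8.33, 6.77 and 5.64 FPKM in Angptl2-/- libraries (log2 fold change −0.69, SE 0.15, adjusted p = 0.273). It has a GC content of 60.6%, and after GC correction it had −0.32. Clu, an abundant brain apolipoprotein, ranged from 155 to 195 FPKM and from 143 to 159 FPKM in Angptl2+/+ and Angptl2-/- brain (−0.25, SE 0.12). Of 4 tested sterol hydroxylases none passed at a nominal p of 0.05 (background 16.2% of all genes). Cyp46a1, the neuronal cholesterol 24-hydroxylase, measured 53.2, 55.3 and 73.0 FPKM in Angptl2+/+ and 44.9, 52.2 and 47.5 FPKM in Angptl2-/- libraries (log2 fold change −0.32, SE 0.14, and −0.01 after GC correction).

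SREBP processing and control had 9 positive and 3 negative values among 12 genes (median 0.13). At a nominal p below 0.05, 2 were higher and 0 lower (background 7.09% and 9.12% of all genes). Erlin1, an endoplasmic reticulum protein that takes part in SREBP retention, measured 3.21, 3.82 and 4.03 FPKM in Angptl2+/+ and 5.12, 5.06 and 5.89 FPKM in Angptl2-/- libraries. All 3 Angptl2-/- libraries were higher (log2 fold change 0.53, SE 0.13, adjusted p = 0.273), and the value after GC correction was 0.42. Pgrmc1, a haem-binding protein that interacts with INSIG and SCAP, was the most abundant of the list and ranged from 102 to 156 FPKM and from 148 to 176 FPKM (0.35, SE 0.17). In the branches from mevalonate to other isoprenoids 2 of 10 genes were higher and 0 lower at that nominal p (background 7.09% and 9.12%). Nus1, a subunit of the dolichol-making prenyltransferase, ranged from 20.5 to 23.4 FPKM and from 24.6 to 27.2 FPKM (0.27, SE 0.10, adjusted p = 0.280). Nus1 has 42.3% GC and a value of 0.06 after GC correction.

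For the supply of acetyl-CoA and NADPH 0 of 9 genes passed at a nominal p of 0.05 (background 16.2% of all genes). Cs, citrate synthase, was at −0.00 (SE 0.09) and Me1, cytosolic malic enzyme, at 0.25 (SE 0.11). Among 21 tested genes of other fatty acid synthesis, elongation and desaturation 1 was lower and 0 higher at that p (background 9.12% and 7.09%). This was Tecr, the reductase of the last step of each elongation cycle, with 127, 115 and 116 FPKM in Angptl2+/+ and 99.3, 93.5 and 83.4 FPKM in Angptl2-/- libraries (log2 fold change −0.38, SE 0.11, adjusted p = 0.273, and −0.12 after GC correction). Of 8 acyl-CoA synthetases 3 were lower and 1 higher at that nominal p (background 9.12% and 7.09%). Acsbg1, the bubblegum-type synthetase, measured 46.5, 34.1 and 40.6 FPKM in Angptl2+/+ and 28.8, 25.4 and 25.8 FPKM in Angptl2-/- libraries (−0.59, SE 0.13, adjusted p = 0.273). Its value after GC correction was −0.39. Acsl3, the most abundant of this list, ranged from 32.6 to 45.3 FPKM and from 36.0 to 48.8 FPKM (0.07, SE 0.17).

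**Figure D4:**
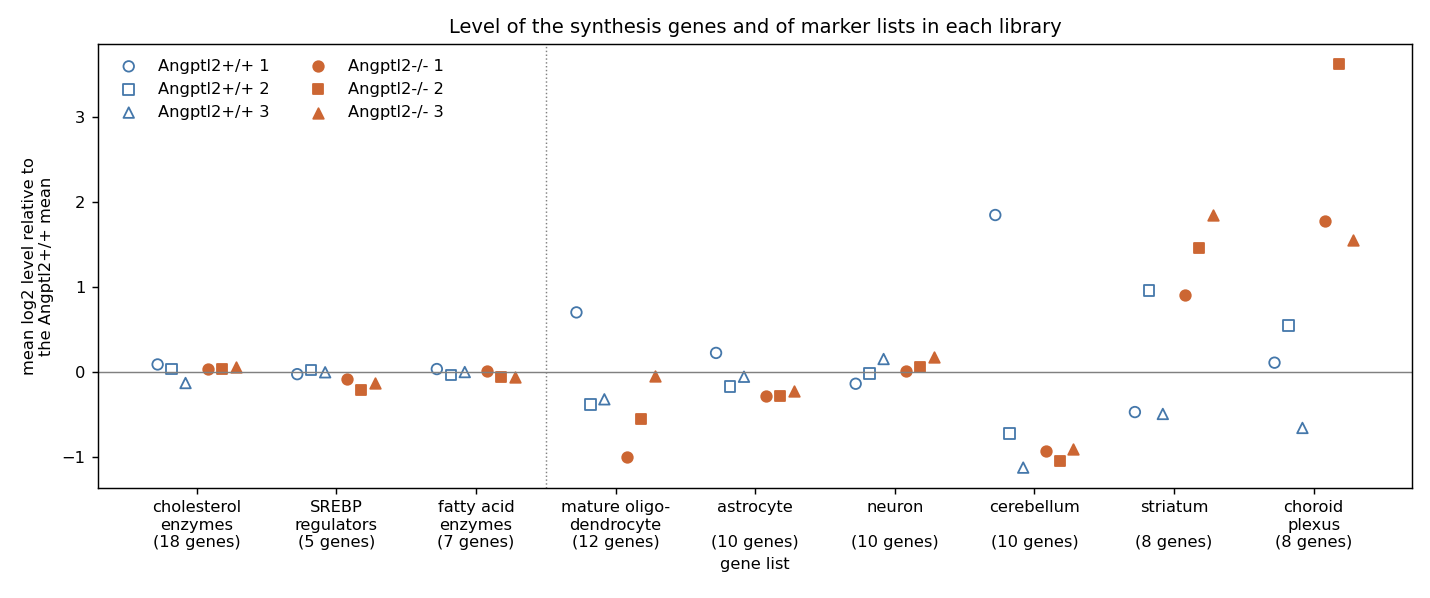
Mean log2 level of the cholesterol enzymes, SREBP regulators, fatty acid enzymes and 6 lists of cell or region markers in each library, set against the Angptl2+/+ mean; open symbols are Angptl2+/+ and filled symbols Angptl2-/- libraries, and the number of genes stands under each list. The means of the synthesis lists, each taken over steps or genes of both directions, stay between −0.21 and 0.09. Means of the cerebellum, striatum and choroid plexus markers differ by more than 1 between libraries.

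As means over whole lists, the libraries differed more in markers of cell types and regions than in the synthesis genes. The mean of the cholesterol enzymes averages over steps that pointed in opposite directions. By step, mevalonate to farnesyl diphosphate ranged from −0.37 to 0.21 over the libraries, and the neuron markers from −0.14 to 0.18. Myelin-forming cells are a main site of sterol synthesis at this age. All 12 markers of mature oligodendrocytes had negative log2 fold changes (median −0.59), 3 of them at a nominal p below 0.05 (background 9.12% of all genes). Their summed level ranged from 1017 to 2074 FPKM in Angptl2+/+ and from 642 to 1231 FPKM in Angptl2-/- libraries, and none was at 0 in any library. Relative to the Angptl2+/+ mean these markers were at 0.70, −0.38 and −0.32 in Angptl2+/+ and −0.99, −0.55 and −0.04 in Angptl2-/- libraries, where the cholesterol enzymes were at 0.09, 0.04 and −0.13 and at 0.04, 0.04 and 0.06. In whole-tissue RNA fewer cells of a type and less RNA per cell cannot be told apart. Of 10 astrocyte markers 7 were negative and 3 lower at a nominal p below 0.05 (background 9.12%). Their sums were 611 to 772 FPKM in Angptl2+/+ and 588 to 635 FPKM in Angptl2-/- libraries. Of 6 red blood cell markers (median −1.03) 5 were lower at that p (background 9.12%). Their sums of 405 to 596 FPKM in Angptl2+/+ and 227 to 383 FPKM in Angptl2-/- libraries did not overlap. The sums of 8 endothelial markers did not overlap either (103 to 114 FPKM and 83.9 to 89.2 FPKM), with 1 marker lower at that p. That marker was Cldn5, the most abundant of the list and the only one of the 8 without overlap. It was at 33.7 to 44.4 FPKM in Angptl2+/+ and at 30.4 FPKM or lower in Angptl2-/- libraries. Of the 8 markers 3 had positive and 5 negative log2 fold changes (median −0.09).

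Markers of brain regions set single libraries apart. The summed cerebellum markers were at 177 FPKM in Angptl2+/+ replicate 1 and between 59.2 and 79.9 FPKM in the other 5 libraries, where Gabra6 and Pcp2 were each listed at 0 in 1 library. Single markers differed more than this sum. Gabra6 was at 10.5 FPKM in Angptl2+/+ replicate 1 and at 0.167 FPKM or lower in the other 5 libraries. En2 was at 3.72 FPKM and at 0.19 FPKM or lower. Calb1, the most abundant of the list, did not set that library apart (27.3 FPKM, and 20.2 to 34.8 FPKM in the others). The 8 striatum markers summed to 61.8, 147 and 83.4 FPKM in Angptl2+/+ and to 138, 206 and 261 FPKM in Angptl2-/- libraries. The 8 choroid plexus markers summed to between 45.7 and 69.4 FPKM in Angptl2+/+ and between 177 and 1117 FPKM in Angptl2-/- libraries, and none was at 0. Most of the Angptl2-/- sums was Ttr alone (141, 916 and 99.6 FPKM, against 4.29 FPKM or lower in Angptl2+/+). Most of the Angptl2+/+ sums was Enpp2 (51.2, 37.6 and 67.7 FPKM), which overlapped between genotypes. All 8 markers had positive log2 fold changes, and 4 were without overlap (background 10.7% of all genes). The part of these markers in the values of the synthesis genes was not tested. The 10 neuron markers, which check the labelled tissue, were at 31.4 FPKM or more in every library.

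Angptl2 itself was low in every library, with 0.660, 0.958 and 0.291 FPKM in Angptl2+/+ and 0.166, 0.320 and 0.126 FPKM in Angptl2-/- libraries, or 31 to 107 and 13 to 34 fragments. The mean was lower in Angptl2-/- brain, but Angptl2-/- replicate 2 exceeded Angptl2+/+ replicate 3 (exact permutation p = 0.2). Only exon 2 was deleted, and the gene-level values do not separate exons. Fragments recovered from the table summed to between 17127276 and 18928921 per library.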

How the data were processed

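RNA-seq of mouse brain at postnatal day 15 was analysed from the gene table that the authors deposited, which holds FPKM values (fragments scaled by exon length and by library depth) for 6 libraries, 3 Angptl2+/+ and 3 Angptl2-/-. Total RNA was sequenced as 150-base pairs. The submitters' processing notes name Bowtie 0.12.2 and the mm8 build. The table has 54532 gene identifiers, of which 54495 are in GENCODE M21 (GRCm38). GENCODE M21 gave symbols, coordinates, exon lengths and the GC content of the longest transcript of each gene. How reads were counted is not given in the sources used here. Multiplying FPKM by exon length gave whole fragments, within 0.05, for 96.6 to 96.8% of values.

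Genes with a mean of at least 0.5 FPKM (14862) were tested on log2(FPKM + 0.1) with limma 3.58.1 in R 4.3.3, with an intensity trend, two-sided, and Benjamini-Hochberg adjustment over all of them. Fold changes are on that scale and understate those of low genes. The fit and the GC correction (loess, span 0.3, each library) were tested on simulated data. Single values were compared with exact permutation tests, two-sided. Alternatives were other pseudocounts, filters, scalings, corrections for GC content and length, voom on recovered fragments, the replicate block and leaving out each library. Sex as a covariate and the GC correction with the replicate block were added after the data were seen. Shared reads were gauged as the percent of 50-base words of a transcript that occur in transcripts of other genes. The reads are longer than these words, so a shared word need not make a read ambiguous, and no alignment was examined.

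The 31 genes, the lists and the tests were chosen with earlier results of these data known. Every gene of the 31 is named. Values of every library are given for genes with a nominal (not adjusted) p below 0.05 or without overlap between genotypes, for the most abundant gene of each step and for Srebf1, Srebf2, Insig1 and Insig2. Of the other lists the most abundant gene and the one of smallest p are named, with Angptl2 as a check of the labels. Genes named for shared reads or as markers were chosen after their values were seen.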

Additional observations from a re-analysis of the deposited data

How the results depend on the processing

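Of 30 tested genes 20 kept the sign of their log2 fold change in all 21 alternatives, among them Hmgcs1, Sqle, Msmo1, Nsdhl, Mvk, Tm7sf2 and Srebf1, though Tm7sf2 had a nominal p below 0.05 in only 1 of them, and no alternative gave one of the 30 an adjusted p under 0.05. The other 10 changed sign in some, and the cause was not tested. With the GC correction, alone or with the replicate block, the log2 fold change was −0.031 for Insig1, −0.063 for Elovl6, −0.072 for Cyp51, −0.081 for Elovl5, 0.091 for Acly, 0.11 for Scap, 0.14 for Srebf2 and 0.20 for Fasn, the fatty acid median was −0.063, and 2 genes were higher and 0 lower at a nominal p below 0.05. The 2 higher genes were Sqle and Msmo1 with the GC correction alone and Fdft1 and Sqle with the block added. Of all genes, 3.41% were higher and 3.47% lower with the GC correction alone, and 3.9% and 4.36% with the block added. With the length correction Lss was −0.020, Acaca −0.090 and the fatty acid median −0.090. With quantile normalization Acly and the fatty acid median were 0.041. With sex as a covariate Insig1 was −0.030 and Acly 0.016, with voom Insig1 was −0.011, and without mitochondrial and haemoglobin genes Acly was 0.0069. Without the intensity trend, with voom or with sex as a covariate, 1 gene was lower at a nominal p below 0.05, Srebf1. Of all genes 8.09, 8.27 and 6.34% were lower in these settings. Over all genes, 1 passed the adjusted p with the replicate block and 1 with sex as a covariate, Ttr in both.

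Leaving out 1 library at a time, 0 to 5 of the 30 genes were higher and 1 to 5 lower at a nominal p below 0.05 (3.13 to 9.24% and 5.32 to 11.1% of all genes), and 0 to 1 gene of all passed the adjusted p (Gapdh, without Angptl2+/+ replicate 1). Without Angptl2-/- replicate 2, 0 were higher (3.24% of all genes) and 1 lower (5.32%). Without Angptl2-/- replicate 3, 2 were higher (Msmo1, Nsdhl; 3.13%) and 1 lower (5.62%), and without Angptl2+/+ replicate 3, 2 were higher (Msmo1, Sc5d; 9.24% of all genes) and 5 lower (10.8%). Without Angptl2+/+ replicate 2, 1 was lower (5.93% of all genes), and Srebf1 was lower at that p whichever library was left out. The fatty acid median ranged from −0.080 to 0.022. The log2 fold change ranged from −0.027 to 0.14 for Acaca, −0.083 to 0.11 for Acly, −0.016 to 0.11 for Cyp51, −0.068 to 0.19 for Elovl5, −0.00069 to 0.24 for Elovl6 and −0.080 to 0.085 for Insig1, and, with 1 sign, from −0.31 to −0.060 for Scd1, −0.39 to −0.046 for Ebp and −0.64 to −0.19 for Pmvk.

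Libraries of both genotypes carry replicate numbers 1 to 3, but deviations of same-numbered libraries correlated by 0.04, −0.07 and 0.16, so they share only a number. With the replicate block 3 of the 30 genes were higher (Hmgcs1, Msmo1, Nsdhl) and 4 lower (Mvk, Pmvk, Mvd, Srebf1) at a nominal p below 0.05, where 7.83 and 10% of all genes were. With 3 libraries per genotype, differences of this size could not be told from the spread between libraries.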
